A study of Mus musculus with 15 samples.

Results

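Chromosome 13 of the mouse was examined for the domains at which the histone variant H2A.X was listed as decreased in embryonic stem cells. The members are all rows on chromosome 13 in the 10 decreased-domain lists of the series, 953 of 23031 domains. The chromosome was chosen by its listed domains, because its coverage was low in the Serum/LIF lists titled XS, with almost no domains in XS line 32. The coverage and the number, length and position of domains in those lists are therefore described against the other lists without a test.

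The series asked whether H2A.X is deposited differently in embryonic stem cells of 129S6 X C57B6 blastocyst origin under different culture conditions. H2A.X was mapped by native ChIP-seq, in which mononucleosomes released by MNase from uncrosslinked chromatin are immunoprecipitated and sequenced. Of 15 samples, 11 were H2A.X immunoprecipitates, and 10 of these have a list here. The 2i/LIF cells (lines 34, 35 and 37) grew without serum in LIF with 1 µM PD0325901 to block Mek and 3 µM CHIR99021 to block Gsk3. The 2i/LIF then Serum/LIF cells (lines 34 and 37), here called switched, went from that medium into Serum/LIF, for a time that the labels do not state. The Serum/LIF cells were grown with fetal bovine serum and LIF on irradiated feeder cells, and their titles carry XS (lines 30, 31 and 32) or S (lines 35 and 37). What XS and S stand for is not stated, no list of S line 34 was analysed here, and the sex of each line is not among the labels although the lines were male and female. The XS lists come from other lines than all other lists, so XS culture and line cannot be told apart. Each list was called against a control that is not named, and no read counts come with it, so depth is unknown and domains shared between lists may reflect a shared control. The H2A.X samples of a group carry different line numbers, and no line is repeated within a group. A p-value here thus reflects the spread of these samples alone, in which line and technical differences cannot be told apart. The 8 lists other than the S lists are called wide, since the S lists hold 26 and 130 domains against 1868 to 4392 in the others.

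H2A.X is a histone H2A variant present in a fraction of nucleosomes and best known for the phosphorylation of its tail around DNA double-strand breaks. Blocking Mek and Gsk3 holds embryonic stem cells in a state close to the early epiblast, whereas serum with LIF gives a more mixed population. Mouse chromosome 13 is telocentric and carries the main cluster of replication-dependent histone genes, which supply the canonical histones of S phase. In the RefSeq gene table of GRCm38.p6, 47 of 57 protein-coding genes named H2ac, H2bc, H3c or H4c lie on chromosome 13, among them 13 of 17 canonical H2A genes, while H2ax itself lies on chromosome 9. The lists are of build mm9, so no gene was placed in a domain.

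In the 2i/LIF and switched lists, chromosome 13 was covered like an average autosome or slightly more, whereas in the XS lists it was the least covered of all 19 autosomes. Coverage is the share of the chromosome's span, 117 Mb from 3038101 to 120221400 (mm9), that lies in a listed domain. It was 36.3%, 78.5% and 54.0% in 2i/LIF lines 34, 35 and 37, where 34.6%, 78.2% and 44.8% of the bins of all autosomes were covered. Switched lines 34 and 37 had 48.0% and 48.9% of chromosome 13 covered, against 42.4% and 41.5% over all autosomes. The XS lists stood apart: lines 30, 31 and 32 had 21.6%, 61.9% and 0.0821% of chromosome 13 covered, against 36.3%, 72.8% and 30.5% over all autosomes. In covered length this was 42.5, 92.0 and 63.2 Mb for 2i/LIF, 56.3 and 57.4 Mb for the switched lists, and 25.4, 72.5 and 0.0962 Mb in the XS lists.

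Set against the mean of the other 18 autosomes in the same list, the XS lists and the other 5 wide lists did not overlap. Such a separation was not limited to chromosome 13. By the same measure chromosome 9 separated narrowly in the same direction, and chromosome 16 in the opposite one. The deviation of chromosome 13 was 1.20, 0.00338 and 8.64 percentage points in 2i/LIF lines 34, 35 and 37. It was 5.55 and 6.73 points in switched lines 34 and 37, where chromosomes 6 and 8 lower the mean of the others. These were covered over 4.37% and 1.16% in switched line 34 and over 0.0355% and 0.280% in switched line 37. By rank, chromosome 13 was only number 11 and number 13 from the lowest of 19 in these lists. In XS lines 30, 31 and 32 the deviation was -15.7, -11.7 and -31.8 points. In absolute coverage the groups did overlap, since XS line 31 was above 4 of these 5 lists. The mean deviation was -19.7 ± 10.6 points (SD, n = 3) in the XS lists and 4.42 ± 3.68 points (SD, n = 5) in the other 5, a difference of -24.1 points, or -18.1 without XS line 32. Lines 34 and 37 each enter the other 5 under both cultures, so these lists are not independent lines and their SD is descriptive. With chromosomes 6 and 8 left out of the other autosomes the difference was -22.0 points. Among the other autosomes the lowest coverage was 25.1% in XS line 30 (chromosome 8), 64.9% in XS line 31 (chromosome 7) and 23.8% in XS line 32 (chromosome 19). Chromosome 13 lay 3.42 points, 2.98 points and 23.7 points below these. In the higher-scoring 50% of each list, chromosome 13 of XS line 30 was at 11.4%, no longer the lowest but the fifth lowest of 19, and the difference was -13.03 points.

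**Figure D1:**
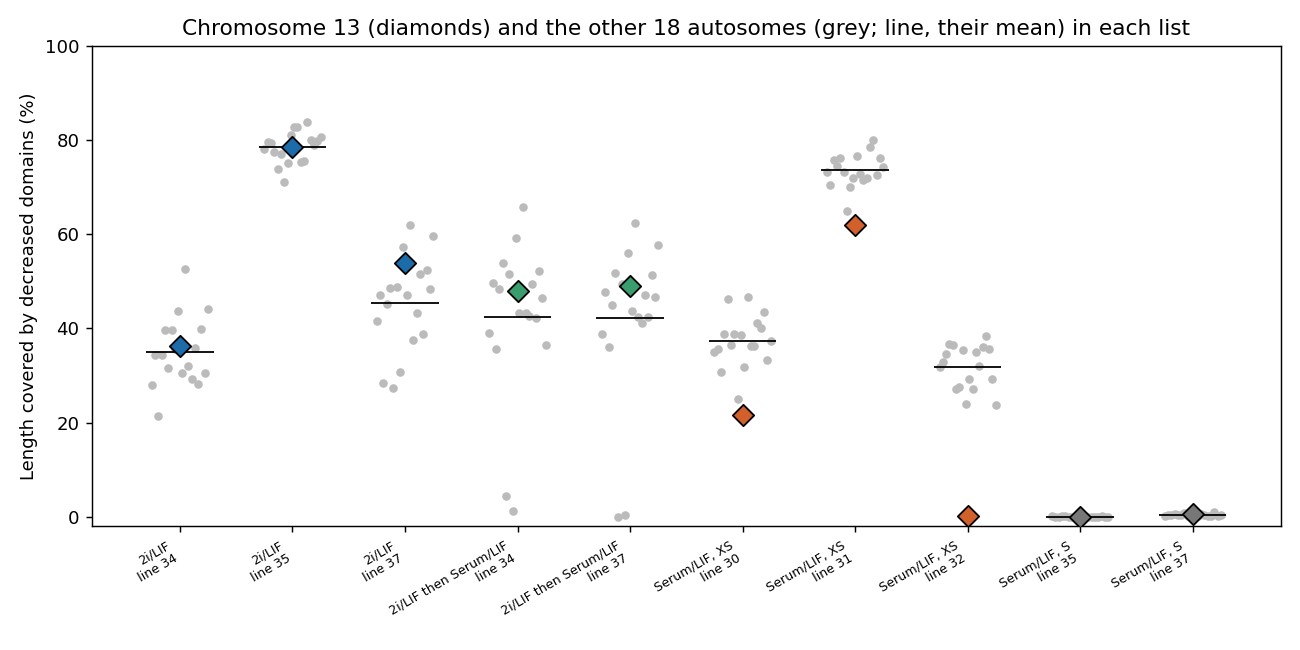
Share of length covered by decreased domains (vertical axis, %) in each of the 10 lists (horizontal axis). Diamonds are chromosome 13, grey points the other 18 autosomes and the line their mean; the XS diamonds at 21.6%, 61.9% and 0.0821% lie below all grey points of their lists.

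The XS lists differed among themselves in whether domains were fewer or shorter. The numbers of domains on chromosome 13 were 133, 145 and 175 in 2i/LIF lines 34, 35 and 37, 109 and 167 in switched lines 34 and 37, and 98, 113 and 3 in XS lines 30, 31 and 32. Per 100 Mb, XS line 30 had 83.6 domains on chromosome 13, below the 88.5 to 135 of its other autosomes, and their mean length of 259 kb was also below the 270 to 439 kb there. XS line 31 had 96.4 domains per 100 Mb, inside the range of 71.6 to 110 on its other autosomes, with a mean length of 642 kb that exceeded only 1 of the 18 other autosomes. Its lower coverage than on other autosomes thus came with shorter, not fewer, domains. XS line 32 had 2.56 domains per 100 Mb against 140 to 227 elsewhere, and a mean length of 32.1 kb against 120 to 275 kb.

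Domain lengths on chromosome 13 spanned from a single bin of 1.3 kb to several megabases. The median was 182, 339 and 231 kb in 2i/LIF lines 34, 35 and 37, 205 and 148 kb in switched lines 34 and 37, and 159, 334 and 36.4 kb in XS lines 30, 31 and 32. The median of XS line 31 was thus close to that of 2i/LIF line 35, the other very wide list. Long domains held much of the covered length: those of 1 Mb or more numbered 10, 29 and 14 for 2i/LIF and 17 and 15 for the switched lists, and made up 33.7%, 57.9%, 33.6%, 58.2% and 41.5% of the length. XS line 31 had 19 such domains with 55.3% of its length. XS line 30 had only 2, with 18.7%, and XS line 32 had none.

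The longest domains of the 7 wide lists other than XS line 32 lay in 3 places. In 2i/LIF line 34 it ran from 55693301 to 58272500 (2.58 Mb). A place slightly nearer the centromere held the longest domain of 2i/LIF line 37 (51255101 to 54588300, 3.33 Mb), of switched line 37 (51027601 to 54089100, 3.06 Mb) and of XS line 30 (51040601 to 54160600, 3.12 Mb). The third place, near 70 Mb, held the longest domain of 2i/LIF line 35 (69135301 to 73589100, 4.45 Mb), of switched line 34 (68859701 to 74328800, 5.47 Mb) and of XS line 31 (68729701 to 73430500, 4.70 Mb).

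**Figure D2:**
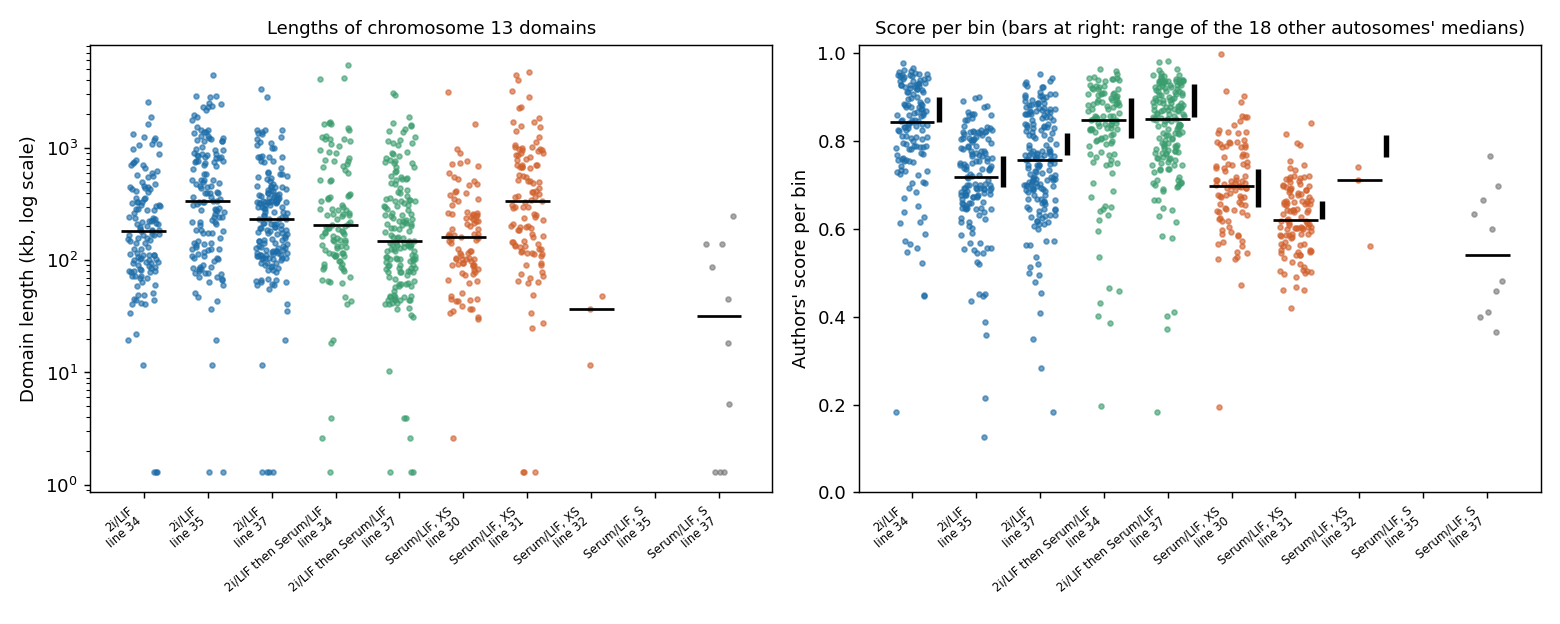
Length (left, kb, log scale) and authors' score per bin (right) of every chromosome 13 domain by list; horizontal lines are medians and vertical bars the range of the medians of the other 18 autosomes. XS line 32 shows 3 short domains, and XS line 30 only 2 of 1 Mb or more.

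In XS line 32 the chromosome was almost free of domains over its whole length, although this list holds 4392 domains, the most of all. Its 3 domains on chromosome 13 had 28, 37 and 9 bins. The first, from 56852901 to 56889300 (36.4 kb), was fully covered in all 7 other wide lists. The domain from 61766901 to 61815000 (48.1 kb) was covered in 2i/LIF lines 35 and 37 and XS line 31 and not touched in 2i/LIF line 34, XS line 30 or either switched list. The domain from 112278401 to 112290100 (11.7 kb) was covered over 88.9% in 2i/LIF line 34, fully in 2i/LIF lines 35 and 37, XS line 31 and both switched lists, and not at all in XS line 30. The first 53.8 Mb of the span, 3038101 to 56852900, held no domain, while the longest such stretch on its other autosomes was 7.93 Mb, on chromosome 4. In windows of 10 Mb, all 12 of chromosome 13 were covered over less than 1%, compared with 2 of 235 windows on the other autosomes of this list.

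The part from 50 to 60 Mb was densely covered in all wide lists except XS line 32. Coverage of this window was 89.4%, 90.4% and 89.1% in 2i/LIF lines 34, 35 and 37 and 89.0% and 89.4% in switched lines 34 and 37. It was also where XS line 30 had its highest coverage, 76.1%, and XS line 31 had 79.8%. These 7 lists lay between 76.1% and 90.4% there. The span from 40 to 60 Mb held 48.4% of all covered length in XS line 30, 39.1% in 2i/LIF line 34 and 19.3% to 30.3% in the other 5.

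**Figure D3:**
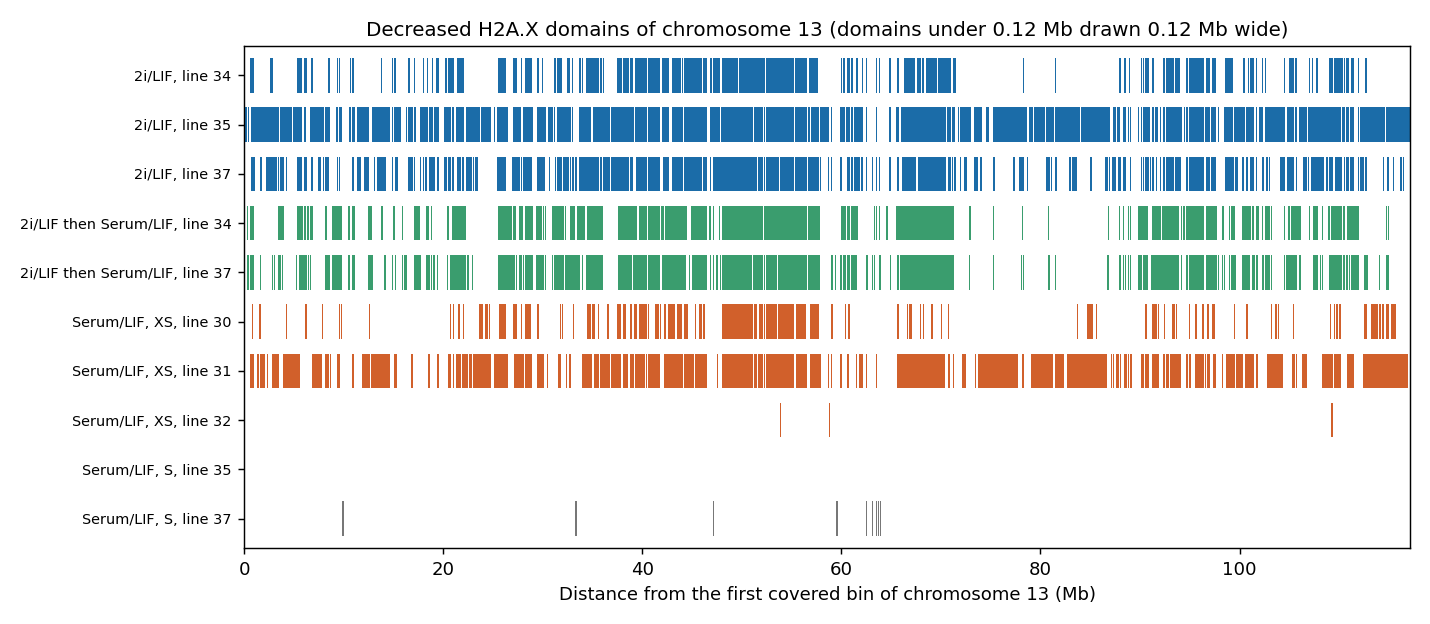
Every decreased domain of chromosome 13 (bars) by list (rows) against the distance from the first covered bin (horizontal axis, Mb). XS line 30 keeps a dense block in the middle of the chromosome, XS line 32 has 3 domains, S line 37 has 10 and S line 35 none.

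Away from this block, XS line 30 was sparsely covered in several windows. From 10 to 20 Mb its coverage was 2.82%, compared with 10.9%, 68.8% and 38.9% in 2i/LIF lines 34, 35 and 37 and 25.6% and 28.7% in the switched lists. From 70 to 80 Mb it was 6.54%, against 35.2% to 79.8% in the 5 lists with 2i/LIF and 75.3% in XS line 31. XS line 30 also had the longest domain-free stretch apart from XS line 32 and the S lists, 12.8 Mb from 73892001 to 86700900. Its longest elsewhere was 10.6 Mb, on chromosome 8. The order was not the same everywhere: from 80 to 90 Mb XS line 30 had 7.88%, above 2i/LIF line 34 at 1.78% and both switched lists at 2.56% and 4.54%, while 2i/LIF line 37 had 28.2% and 2i/LIF line 35 and XS line 31 had 93.3% and 81.6%. In this part lay the longest domain-free stretches of switched line 34 (83882501 to 89848200, 5.97 Mb), switched line 37 (84553301 to 89745500, 5.19 Mb) and 2i/LIF line 37 (81703701 to 83586100, 1.88 Mb). That of 2i/LIF line 34 reached into it, from 74439301 to 81235700 (6.80 Mb). The widest lists, 2i/LIF line 35 and XS line 31, had their longest free stretches from the same base, 66475501, over 1.35 Mb and 2.19 Mb. They fall in the window from 60 to 70 Mb, of which 37.1% was in no list at all, the most of the 12 windows.

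**Figure D4:**
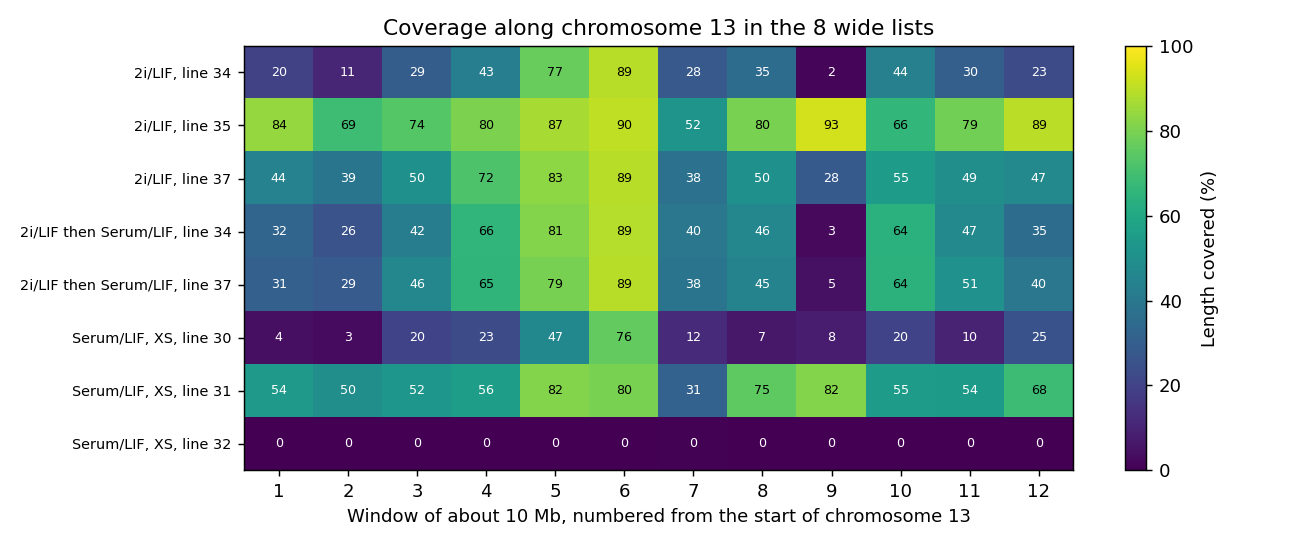
Coverage (colour and number, %, rounded to whole numbers) of 12 windows of about 10 Mb along chromosome 13 (horizontal axis) in the 8 wide lists (rows). Window 6, from 50 to 60 Mb, is the most covered in 5 lists, and XS line 32 is below 1% in all windows.

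XS line 30 covered less of chromosome 13 than of other autosomes whether or not the lists with 2i/LIF covered it, and XS line 31 was low or near the lowest in the same classes of bins. The chromosome was divided into 32.4 Mb covered by all 5 lists of cells with 2i/LIF, alone or followed by Serum/LIF, 70.6 Mb covered by 1 to 4 of them and 14.1 Mb covered by none. XS line 31 held 86.5% of the first class, within the 85.7% to 93.2% of the 16 other autosomes on which that class exceeds 1 Mb (chromosomes 6 and 8 are left out), with only 1 of them lower. Of the second class it held 59.8%, below the 66.0% to 81.2% of all 18 others. Of the third it held 15.6%, against a mean of 37.01% over the 18 others, of which 2 were lower. XS line 30 was below all other autosomes in each class: 55.1% of the first against 58.7% to 82.5%, 10.5% of the second against 22.5% to 42.1%, and 0.450% of the third against 3.21% to 25.7%. XS line 32 held 0.144%, 0.0700% and 0% of the 3 classes, against lowest values elsewhere of 18.9%, 18.8% and 6.71%. The classes divide the same XS coverage by which the chromosome was chosen. Low shares in them follow in part from that choice and are a description only.

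**Figure D5:**
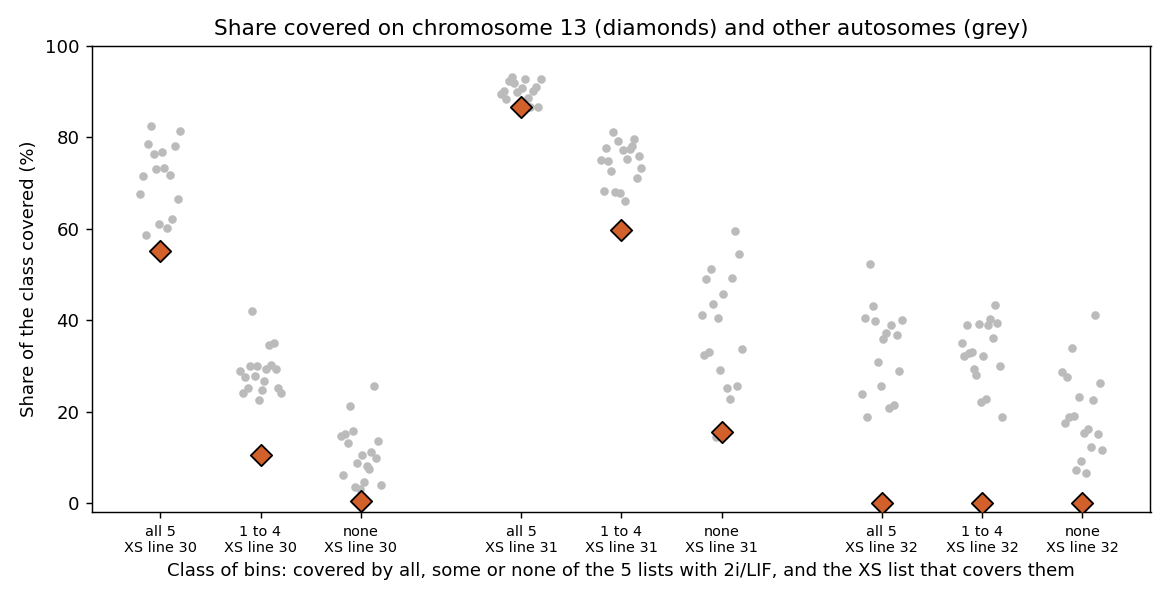
Share (vertical axis, %) of 3 classes of bins, those covered by all, 1 to 4 or none of the 5 lists with 2i/LIF, that each XS list covers. Diamonds are chromosome 13 and grey points the other autosomes (16 in the first class, 18 in the others); XS line 31 lies near the lower end of the grey points in the first class at 86.5%.

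What XS line 30 did have on chromosome 13 lay almost wholly inside domains of other lists, as it did elsewhere. Of its 98 domains there 97 (99.0%) were fully inside the union of the other wide lists, against 97.9% of its 2436 domains on the other autosomes. The 2 widest lists, XS line 31 and 2i/LIF line 35, covered 96.0% and 94.9% of its length on chromosome 13, near the 94.9% and 91.1% on the other autosomes. The narrower lists covered more of it on chromosome 13 than elsewhere: 2i/LIF lines 34 and 37 covered 75.9% and 81.3%, against 58.3% and 62.1%, and switched lines 34 and 37 covered 81.6% and 83.3%, against 60.8% and 60.7%. In the opposite direction, XS line 30 covered 45.3%, 26.2% and 32.6% of the chromosome 13 length of 2i/LIF lines 34, 35 and 37, and 62.7%, 43.2% and 52.0% of their length elsewhere. Length found in a single wide list was 5.25 Mb in 2i/LIF line 35, 2.14 Mb in XS line 31, 1.14 and 0.755 Mb in switched lines 34 and 37, and at most 0.113 Mb in the others.

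Unbroken stretches show where the lists met. Chromosome 13 had 17.4 Mb in all 7 wide lists other than XS line 32, 14.9% of its span, against 16.7% of the other autosomes together. The 5 longest of these all lay in the block from 50 to 60 Mb: 56843801 to 58266000 (1422 kb), 51256401 to 52674700 (1418 kb), 58520801 to 59469800 (949 kb), 55806401 to 56592900 (786.5 kb) and 52712401 to 53362400 (650.0 kb). XS line 32 touched only the first, over 2.56% of it. Stretches in all 5 lists with 2i/LIF and in no XS list made up 3.94 Mb, or 3.36% of the span, more than on any other autosome (at most 2.64%). This rank follows in part from choosing the chromosome for its low XS coverage, so it is a description only. The stretches were short and scattered, the 5 longest being 98300801 to 98562100 (261 kb), 64006801 to 64203100 (196 kb), 110722301 to 110918600 (196 kb), 73430501 to 73586500 (156 kb) and 59744101 to 59875400 (131 kb).

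The reverse kind, in XS lines 30 and 31 and in neither switched list, was scarcer than on any other autosome. It made up 3.86 Mb or 3.29% of the span, against 4.48% to 31.5% on the others. Here too the rank follows in part from choosing the chromosome for its low XS coverage, and it is a description only. The range of the others also includes autosomes that were nearly uncovered in the switched lists. The longest stretches of this kind on chromosome 13 lay toward the distal end and in 2 inner places. They were 116203101 to 116968800 (766 kb), 87707101 to 88307700 (601 kb), 118271401 to 118735500 (464 kb), 26653901 to 27034800 (381 kb) and 27261001 to 27530100 (269 kb). 2i/LIF line 35 covered 83.6% of the fourth and all of the other 4, 2i/LIF line 34 covered none of them, and 2i/LIF line 37 covered 35.3% of the second and 28.3% of the third. No list covered 11.5 Mb of the chromosome, 9.82% of the span against 8.29% of the other autosomes, and 13 of the 18 others had less. The lists do not mark bins that could not be called, so this length may include such bins. The 5 longest gaps were 66909701 to 67564900 (655 kb), 92137501 to 92791400 (654 kb), 65635701 to 66105000 (469 kb), 13033801 to 13494000 (460 kb) and 68038101 to 68493100 (455 kb). Of these 5, 3 lay between 65 and 69 Mb.

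The median of the authors' score per bin was lower on chromosome 13 than on any other autosome in 5 of the 8 wide lists, including lists with high coverage. The score of a domain never exceeded its number of bins, so the score per bin runs up to 1, and it is compared only within a list. The median was 0.843, 0.718 and 0.758 in 2i/LIF lines 34, 35 and 37, where the medians of the 18 other autosomes ran from 0.8434 to 0.901, from 0.695 to 0.766 and from 0.769 to 0.819. It was 0.847 in switched line 34 (others 0.807 to 0.899) and 0.851 in switched line 37 (others 0.856 to 0.930). In XS lines 30, 31 and 32 it was 0.699 (others 0.650 to 0.737), 0.619 (others 0.623 to 0.664) and 0.712, over 3 domains only (others 0.765 to 0.813). The 5 lists with chromosome 13 lowest were thus 2i/LIF lines 34 and 37, switched line 37, and XS lines 31 and 32, by margins between 0.000176 for 2i/LIF line 34 and 0.0527 for XS line 32. XS line 30, with reduced coverage, scored above 12 of its 18 other autosomes.

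Score also varied with length, in opposite ways. Domains under 100 kb had lower median scores per bin than longer ones in all 3 2i/LIF lists (0.832 and 0.847 in line 34, 0.709 and 0.725 in line 35, 0.728 and 0.761 in line 37) and in both switched lists (0.814 and 0.857 in line 34, 0.789 and 0.870 in line 37). In XS lines 30 and 31 the shorter domains had the higher medians, 0.747 against 0.686 and 0.672 against 0.616. Domains under 100 kb numbered between 17 (XS line 31) and 55 (switched line 37) in these lists. The split was made on chromosome 13 only, so whether it is particular to this chromosome was not tested. The deposited value in the fifth column, whose meaning is not given, was above 0 in 16 of the 109 domains of switched line 34 and in at most 4 in each other wide list. In switched line 34 that is 14.7% of the domains on chromosome 13, and 16.9% on the other autosomes. In S line 37 the value was above 0 in all 10 domains of chromosome 13. On the other autosomes it was above 0 in 100% of the domains of both S lists.

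Between 2i/LIF and 2i/LIF then Serum/LIF, a contrast that played no part in choosing the chromosome, no difference on chromosome 13 exceeded the spread. Coverage was 48.5% ± 0.657 (SD, n = 2) when switched and 56.2% ± 21.2 (SD, n = 3) under 2i/LIF, which differ by -7.77 points (exact permutation p = 0.8, two-sided; Benjamini-Hochberg adjusted p = 0.8 over 4 tests, as in each of the other 3). The smallest p that 2 lists against 3 can give is 0.2, so none of the 4 tests could pass 0.05. The direction rested on 2i/LIF line 35, a line without a switched list, and was 3.35 points without it. With the line as a block the mean paired difference was 3.35 points too, with 11.7 points in line 34 and -5.03 points in line 37. The number of domains was 138 ± 41.0 (SD, n = 2) and 151 ± 21.6 (SD, n = 3), a difference of -13 (exact permutation p = 0.6, two-sided). Both lines had fewer when switched (differences of -24 and -8), but the group difference was 16 without switched line 34, -42 without switched line 37, -22 without 2i/LIF line 34 and -1 without 2i/LIF line 37.

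The median length differed by -74.1 kb (exact permutation p = 0.4, two-sided), from 251 ± 80.4 kb (SD, n = 3) under 2i/LIF to 177 ± 40.4 kb (SD, n = 2) when switched. The median of line 34 was 23.4 kb longer and that of line 37 differed by -83.2 kb. The deviation from the other 18 autosomes was 6.14 ± 0.831 points (SD, n = 2) when switched and 3.28 ± 4.68 (SD, n = 3) under 2i/LIF, which differ by 2.85 points (exact permutation p = 0.6, two-sided). It turned to -1.42 points when chromosomes 6 and 8, which were nearly uncovered in the switched lists, were left out of the other autosomes. The switched lists of lines 34 and 37 overlapped on chromosome 13 about as much as elsewhere: line 37 covered 91.1% of the length of line 34 there and 88.3% on the other autosomes, and line 34 covered 89.4% and 90.4% of the length of line 37. They covered 86.4% and 67.7% of their own line's 2i/LIF length on chromosome 13, and 81.1% and 67.8% of it on the other autosomes. The last 2 shares include chromosomes 6 and 8, which lower them. Shares without these chromosomes were not computed, so chromosome 13 cannot be called equal to or above the rest here.

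In the Serum/LIF lists titled S, few domains fell on any chromosome. Their fifth-column value was above 0 throughout, unlike that of most domains in the wide lists. Whether the S domains are decreases of the same kind was not tested. S line 35 had 0 of its 26 domains on chromosome 13, which allows a share of up to 11.5% (counting error only), and covered 0.0382% of all autosomal bins. S line 37 had 10 of its 130 domains there, covering 0.689 Mb or 0.588% of the span against 0.381% of all autosomal bins. Of these 10, 6 lay between 65 and 67 Mb, in the window with the most uncovered length. They were 3 single bins (65479701 to 65481000, 66105001 to 66106300 and 66474201 to 66475500), 66518401 to 66536600 (18.2 kb), 66661401 to 66706900 (45.5 kb) and 66873301 to 66878500 (5.2 kb). The other 4 were 12894701 to 13033800 (139 kb), 36290801 to 36431200 (140.4 kb), 50124101 to 50211200 (87.1 kb) and 62453301 to 62702900 (249.6 kb). The first of these ended exactly where the 460 kb gap named above began, and the 5.2 kb domain ended 31.2 kb before the longest gap.

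Most of the length of the S line 37 domains lay outside each of the wide lists. Of the 10, 3 were fully covered in both the 2i/LIF and the switched list of line 37, against 10 of the 120 on the other autosomes. Among the 3 was 36290801 to 36431200, which no list of another line touched. The rest were single bins of 1.3 kb. That from 65479701 to 65481000 was also covered in 2i/LIF lines 34 and 35 and XS line 31, and that from 66105001 to 66106300 in no list of another line. The domain from 50124101 to 50211200 was fully covered in the 3 2i/LIF lists and in switched line 34, over 50.7% in switched line 37 and in no XS list. Of the total length, 33.6% was in 2i/LIF line 37, below the 54.0% of the whole chromosome that this list covers, 27.2% in switched line 37, 13.02% in each other 2i/LIF list, 15.3% in switched line 34 and at most 0.377% in any XS list. On the other autosomes the order was not the same: 2i/LIF line 35 covered 26.4% of the S line 37 length and 2i/LIF line 37 covered 16.0%.

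Low coverage of a whole chromosome occurred elsewhere in the series on other chromosomes and in other lists. Chromosomes 6 and 8, with 1102 and 945 domains over all lists, were covered over 27.2% and 35.5% in XS line 32 and over 36.5% and 25.1% in XS line 30, whereas they were at 4.37% and 1.16% in switched line 34 and at 0.0355% and 0.280% in switched line 37. Chromosome 13, at 48.0% and 48.9% in those lists, was not among the low ones.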

How the data were processed

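The submitters' processing notes name Bowtie2 version 2.0.6 and mm9 for the H2A.X native ChIP-seq reads. How domains were called, against which control, and whether samples were pooled is not given in the sources used here. A list gives the score the authors deposited per domain and a further value of unstated meaning, of which only the sign was used. Direction (decreased) comes from the name of each list alone, also for the S lists, whose further values were all above 0. Starts and lengths are multiples of 1300 bp.

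Each chromosome was cut into 1300 bp bins from its first to its last bin in any list. Bins that could not be called are not marked in the lists and count as uncovered. Coordinates are 1-based. Windows are of 10 Mb by coordinate. The build was checked on chromosome 1, where 21 domains ended beyond the last gene of GRCm38.p6, so that table served only for chromosome-level counts. The 2i/LIF then Serum/LIF lists were compared with 2i/LIF by two-sided exact permutation tests (smaller tail doubled) with Benjamini-Hochberg adjustment. Title numbers were read as cell lines, and the same line pairs samples of different cultures. As a check, the Jaccard index on chromosome 13 of the 2i/LIF list of line 34 was 0.593 with the switched list (2i/LIF then Serum/LIF) of its own line and 0.600 with line 37, and that of line 37 was 0.551 and 0.529.

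Regions were named by rule: all domains of XS line 32 and the S lists, the longest domain and domain-free stretch of other lists, and the 5 longest stretches of 4 kinds. Chromosome, lists of regions and tests were chosen with earlier results of these data known. Alternatives were a minimum length of 10 kb, the higher-scoring 50%, joining across gaps under 10 kb, leaving out each list, the line as block, the median of the other autosomes, and leaving out chromosomes 6 and 8. Functions were tested on simulated lists. Tools were pandas 2.3.3, numpy 2.4.6, matplotlib 3.10.9 and scipy 1.17.1 in Python 3.11.15.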

Additional observations from a re-analysis of the deposited data

Results flagged for a closer look

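The deviation of chromosome 13 from the mean of the other 18 autosomes was above 0 in all 2i/LIF lists and below 0 in all XS lists, with means 23.0 points apart. The 2i/LIF value of line 35 was only 0.00338 points. It was also above 0 in both 2i/LIF then Serum/LIF lists, whose mean was 25.9 points above that of the XS lists. Neither difference was tested, because the chromosome was chosen for it.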

How the results depend on the processing

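Of the 4 tested contrasts between 2i/LIF then Serum/LIF and 2i/LIF, each changed sign under at least 1 alternative. The coverage difference of -7.77 points was 3.99 in the higher-scoring 50% of each list and 3.35 with the replicate block, and ran from -17.8 to 3.35 when single lists were left out. The number of domains ran from -42 to 16 when single lists were left out. The difference in median length of -74.1 kb was 98.2 kb in the higher-scoring 50%, and the deviation from other autosomes was -1.42 points without chromosomes 6 and 8. The replicate block turned no other sign: it gave -16 domains, -29.9 kb and 1.22 points. The XS difference in coverage ran from -42.3 to -11.4 points and that in deviation from -28.2 to -18.1 points when single lists were left out; the latter was -13.03 in the higher-scoring 50%, where XS line 32 had 0% of chromosome 13 covered. Without read counts, the part of sequencing depth in list size was not tested.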
